A study of Homo sapiens with 6 samples.

Results

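8 genes of ion transport in the colon, KCNE3, KCNQ1, KCNN4, CFTR, SLC12A2, SLC26A3, ATP1B1 and CA2, were followed in HT-29 cells, a human colorectal adenocarcinoma line, among 27434 gene rows in all. The set was chosen from earlier results of these same libraries, in which fold changes after siRNA treatment were already known. The fold changes of the 8 genes are therefore given as a description, without a p-value of their own. Each gene was found by its Entrez identifier, and all 8 had a row that holds no other gene. 6 of the 8 had enough counts to be tested across all genes, KCNN4 and SLC26A3 being too low, and CA2 entered mainly through siHOXA-AS3, where it was highest, since it was not tested when siNT and siHOXB-AS3 were fitted alone.

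All cells received a pool of siRNAs with DharmaFECT 4 for 48 hours, at 10 nM by the sample labels. The controls (siNT) received a nontargeting pool. The other cells received a pool against HOXA-AS3 (siHOXA-AS3) or against HOXB-AS3 (siHOXB-AS3), 2 lncRNAs made from matching positions of the HOXA and HOXB clusters. The study's methods state another dose and another RNA extraction reagent than the labels. Each group had 2 libraries of polyA RNA made with the Lexogen SENSE kit. No source used here says whether the 2 came from separate cultures, so every p-value measures the spread between libraries, which may be technical. HT-29 is a single tumour line, and each KD used a single siRNA pool.

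The colon absorbs and secretes salt across one layer of epithelial cells. The Na+/K+ pump, of which ATP1B1 is a beta subunit, keeps sodium low in the cell. SLC12A2 (NKCC1) uses that gradient to bring chloride in across the basolateral membrane, and chloride leaves at the apical side through CFTR. Potassium leaves through basolateral channels, the KCNQ1 channel with its beta subunit KCNE3 and the calcium-activated channel KCNN4, which keeps the driving force for chloride exit. SLC26A3 exchanges chloride for bicarbonate in surface cells, and CA2, a cytosolic carbonic anhydrase, makes the bicarbonate.

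The siRNAs against the 2 lncRNAs are shown first because every group difference rests on the pools used. Differences from siNT rest on the nontargeting pool too, whose sequences are not shown and were not searched. The guide strand, complementary to the target, is written 5′ to 3′ from the study's list of designed siRNAs, with bases 2 to 8, the seed, in capitals. For the HOXA-AS3 pool the list gives only the sense strand and the guide is its reverse complement. For 4 of 4 HOXA-AS3 siRNAs and 3 of 3 HOXB-AS3 siRNAs the first 19 bases of the sense strand occur in an annotated transcript of the target.
HOXA-AS3 guide 1: uUGUUCGCuauucugucuc
HOXA-AS3 guide 2: uUGUUCGGcccuuccauug
HOXA-AS3 guide 3: aGCUUCGCuguccuuuccu
HOXA-AS3 guide 4: uAACGAGUgcccugucuac
HOXB-AS3 guide 1: aCUUUGUCucccuuugucguu
HOXB-AS3 guide 2: uUUCUUUCaugcccgacucuu
HOXB-AS3 guide 3: uUUCCCUUcaccccuugacuu

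No 2 guides share a whole seed, though the seeds of HOXA-AS3 guides 1 and 2 differ only in base 8. The annotated transcript of KCNE3 (GENCODE v29) holds no match to the seed of any of the 7 guides. Matches to the HOXB-AS3 guides were found in each of the other 7 genes, with 4 in the best-matched transcript of SLC12A2, 3 in CFTR and 1 in each of KCNQ1, KCNN4, SLC26A3, ATP1B1 and CA2. Such matches are common, since 66.4% of 12512 genes hold at least 1 for this pool. For the HOXA-AS3 pool that share was 20.4%, and among the 8 genes only CFTR held a match, to guide 4. A match is a run of letters and was not tested as a site.

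The 250 bases before the start of KCNE3, ATP1B1 and SLC26A3 (RefSeq, GRCh38.p14) are shown to set KCNE3 beside the highest and the lowest expressed gene of the set. They are written 5′ to 3′ on the gene's strand, with the GC box (GGGCGG or its reverse complement CCGCCC) in capitals. They lie at chr11:74467550-74467799 (minus strand), chr1:169106440-169106689 (plus strand) and chr7:107803224-107803473 (minus strand).
KCNE3: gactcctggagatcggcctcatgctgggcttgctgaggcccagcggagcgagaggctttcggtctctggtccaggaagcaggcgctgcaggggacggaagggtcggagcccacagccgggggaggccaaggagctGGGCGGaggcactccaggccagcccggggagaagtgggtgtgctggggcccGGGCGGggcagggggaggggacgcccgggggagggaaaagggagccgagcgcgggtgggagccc
ATP1B1: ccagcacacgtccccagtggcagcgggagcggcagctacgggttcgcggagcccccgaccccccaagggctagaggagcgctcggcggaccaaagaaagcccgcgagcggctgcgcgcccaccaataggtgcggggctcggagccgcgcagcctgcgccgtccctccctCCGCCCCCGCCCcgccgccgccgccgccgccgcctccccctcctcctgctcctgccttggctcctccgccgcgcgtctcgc
SLC26A3: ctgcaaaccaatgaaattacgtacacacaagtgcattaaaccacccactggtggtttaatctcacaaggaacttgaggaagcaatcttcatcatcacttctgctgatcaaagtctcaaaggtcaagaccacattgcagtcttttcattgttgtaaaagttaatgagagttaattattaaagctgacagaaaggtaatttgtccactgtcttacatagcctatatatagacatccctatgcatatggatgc

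The GC content of this window was 73.2% at KCNE3, 77.6% at ATP1B1 and 37.6% at SLC26A3, beside a median of 58.0% over 27305 promoters of the same length. KCNE3 held 2 GC boxes, which begin 115 and 64 bases before the start, ATP1B1 held 2 and SLC26A3 none, and 42.3% of all promoters held at least 1. The homeodomain core TAATTA, searched in the same letters on both strands, was found in SLC26A3 only, among the 6 of the 8 genes examined, and in 4.49% of all promoters. The CDX core TTTATG or its reverse complement was in none of the 6 and in 10.0% of all promoters. KCNQ1 had no entry, and CA2 was not examined.

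The 6 libraries held 15998518 to 26263938 expected counts. In siHOXB-AS3 cells HOXB-AS3 was listed at 67 and 76 expected counts, against 303 and 213 in siNT, a log2 fold change of -1.96 (SE 0.248) that did not pass the test against siNT (edgeR adjusted p = 0.0678). Against siHOXA-AS3 the log2 fold change was -1.88 and passed (edgeR adjusted p = 0.0292), a call lost without any one of the siNT or siHOXB-AS3 libraries, with the groups compared alone and with a replicate block. HOXA-AS3 had few counts, 38 and 18 in siNT, 12 and 12 in siHOXA-AS3 and 30 and 22 in siHOXB-AS3, and its log2 fold change of -1.09 (SE 0.403) in siHOXA-AS3 did not pass (edgeR adjusted p = 0.711). Of 8 colon epithelium markers 7 were above 1 TPM and CDX2 was below it, while 10 of 11 markers of mesenchyme, endothelium, leukocytes and hepatocytes were below 1 TPM (CD14 was the exception) and COL1A2, PDGFRB and ALB were at 0. The replicates of siHOXA-AS3 differed most, with an SD over genes of the log2 difference between them of 0.78, against 0.50 in siNT and 0.46 in siHOXB-AS3. That difference went with gene GC content across genes (Pearson r = 0.74 in siHOXA-AS3, -0.383 in siNT and 0.134 in siHOXB-AS3), genes not being independent replicates.

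In siNT cells the 8 genes ranged from 0 to 114 TPM. Levels are compared here in TPM, which accounts for gene length. ATP1B1 was highest at 114 ± 7.29 TPM (SD, n = 2), above 96.3% of all genes. SLC12A2 followed at 35.4 ± 6.78 TPM and KCNE3 at 29.4 ± 2.72 TPM, and these neighbours overlapped between libraries. CFTR at 3.71 ± 0.0495 TPM and KCNQ1 at 2.67 ± 0.0636 TPM were far lower and did not overlap. CA2 at 0.39 ± 0.099 TPM and KCNN4 at 0.36 ± 0.141 TPM overlapped each other. SLC26A3, the anion exchanger of differentiated surface cells, had 1 count in all 6 libraries together, and in the 5 libraries at 0 a count of 0 allows up to 0.0611 to 0.0969 TPM (3 counts; counting error only).

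**Figure D1:**
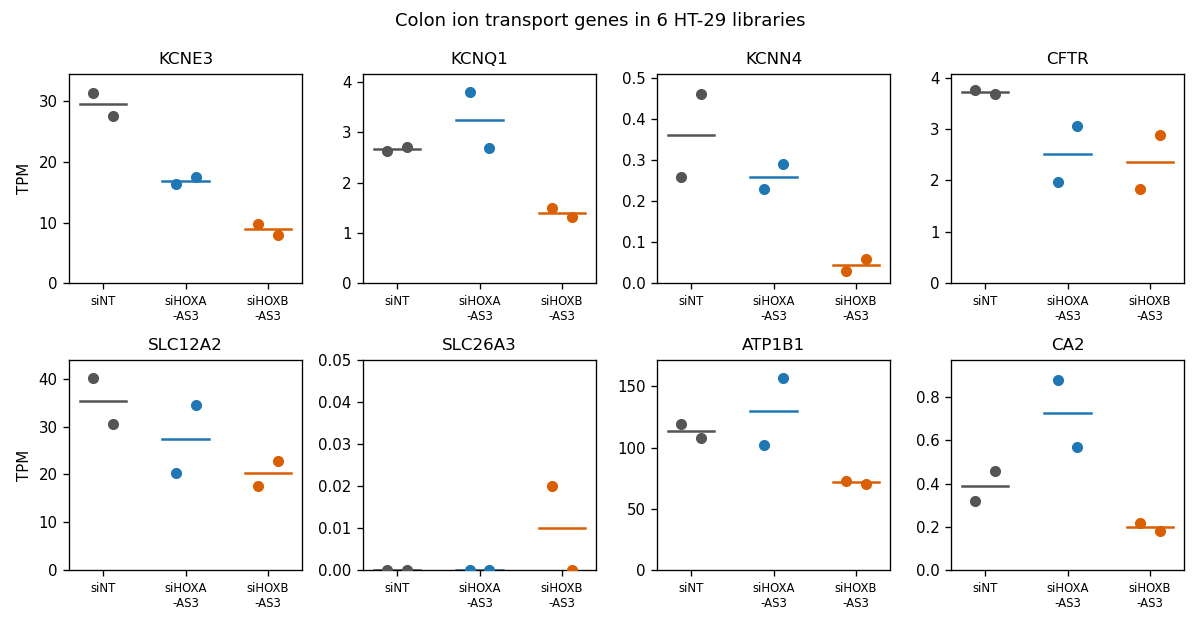
TPM of the 8 genes in each of the 6 libraries, 1 panel per gene with its own linear axis from 0; each point is a library and the short line is the mean of the 2 libraries of a group. KCNE3 steps down from 27.5 to 31.4 TPM in siNT to 16.3 to 17.5 in siHOXA-AS3 and 7.91 to 9.85 in siHOXB-AS3; SLC26A3 sits at or next to 0 throughout.

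KCNE3, the beta subunit that holds KCNQ1 open at rest, was lower after either KD. It was listed at 31.4 and 27.5 TPM in siNT, 16.3 and 17.5 TPM in siHOXA-AS3, and 9.85 and 7.91 TPM in siHOXB-AS3. The 3 groups did not overlap, and siHOXB-AS3 held the lowest values. Behind these levels were 1659 and 921 expected counts in siNT and 520 and 364 in siHOXB-AS3. The log2 fold change against siNT was -0.81 (SE 0.194) in siHOXA-AS3 and -1.63 (SE 0.199) in siHOXB-AS3, which left 32.2% of the siNT level. Between the KDs it was -0.83 (SE 0.196). Among 13034 genes these were the 292nd, 123rd and 1093rd lowest fold changes. Leaving out any 1 library kept the siHOXB-AS3 fold change between -1.81 and -1.48 and the siHOXA-AS3 fold change between -0.87 and -0.74. In bulk RNA, fewer cells that express a gene and less RNA per cell cannot be told apart.

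KCNQ1, the pore-forming subunit, had 2.62 and 2.71 TPM in siNT, 3.80 and 2.68 TPM in siHOXA-AS3 and 1.5 and 1.31 TPM in siHOXB-AS3. Only the siHOXB-AS3 libraries lay outside the siNT range on the low side. The log2 fold change was -0.82 (SE 0.286) in siHOXB-AS3 and 0.29 (SE 0.279) in siHOXA-AS3, and the latter became -0.04 without siHOXA-AS3 replicate 1. The TPM ratio of KCNE3 to KCNQ1 was 12 and 10.2 in siNT, 4.29 and 6.52 in siHOXA-AS3 and 6.57 and 6.04 in siHOXB-AS3. The ratio was lower in all 4 KD libraries than in either siNT library. The other KCNE genes of the list (KCNE1, KCNE2, KCNE4 and KCNE5) were below 0.2 TPM in every library, so KCNE3 made up nearly all KCNE RNA of these cells.

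KCNN4 had 10 and 11 expected counts in siNT, 8 and 7 in siHOXA-AS3 and 1 and 2 in siHOXB-AS3. Its summed count relative to depth in siHOXB-AS3 was 0.134 of that in siNT (3 counts against 21). In siHOXA-AS3 the ratio was 0.751 (15 counts against 21). These ratios of few counts are a description, and they leave out the spread between libraries.

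On the chloride side the groups were less well separated. CFTR had 3.75 and 3.68 TPM in siNT, 1.97 and 3.06 TPM in siHOXA-AS3 and 1.84 and 2.88 TPM in siHOXB-AS3. Both KDs were below siNT and overlapped each other, with log2 fold changes of -0.58 (SE 0.298) and -0.56 (SE 0.297). The latter moved to -0.28 without siHOXB-AS3 replicate 1 and to -0.91 without replicate 2. SLC12A2 had 40.2 and 30.6 TPM in siNT, 20.2 and 34.4 TPM in siHOXA-AS3 and 17.6 and 22.9 TPM in siHOXB-AS3. One siHOXA-AS3 library lay below the siNT range and the other within it, and both siHOXB-AS3 libraries lay below it, with a log2 fold change of -0.71 (SE 0.27) against siNT and of -0.38 (SE 0.269) in siHOXA-AS3. With replicate 1 of siHOXA-AS3 left out its value was -0.09, and with replicate 2 left out it was -0.76.

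ATP1B1, a beta subunit that the Na+/K+ pump needs to reach the membrane, had 119 and 108 TPM in siNT, 102 and 157 TPM in siHOXA-AS3 and 73.1 and 70.4 TPM in siHOXB-AS3. The siHOXB-AS3 libraries were the 2 lowest, with a log2 fold change of -0.57 (SE 0.204). In siHOXA-AS3 it was 0.17 (SE 0.203) and turned to -0.11 without siHOXA-AS3 replicate 2. ATP1B3, another beta subunit, had a log2 fold change of 0.35 in siHOXB-AS3 (SE 0.149; edgeR adjusted p = 0.41), and ATP1B2 was at or below 0.07 TPM. The TPM ratio of ATP1B1 to ATP1B3 was 1.2 and 1.1 in siNT, 1.03 and 1.49 in siHOXA-AS3 and 0.638 and 0.574 in siHOXB-AS3, so ATP1B3 was the more abundant beta subunit only in the siHOXB-AS3 libraries.

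**Figure D2:**
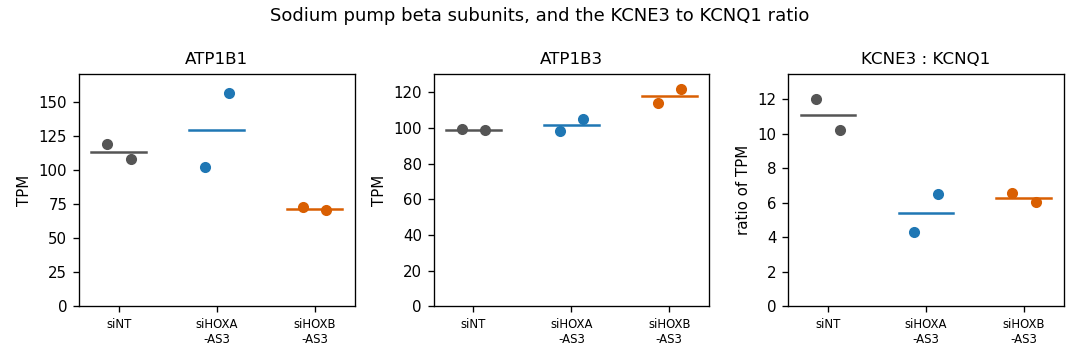
TPM of the sodium pump beta subunits ATP1B1 and ATP1B3 and the TPM ratio of KCNE3 to KCNQ1 in each library, on linear axes from 0; each point is a library and the short line is the mean of a group. ATP1B1 is lowest in siHOXB-AS3 at 70.4 and 73.1 TPM, and the ratio is lower in the 4 KD libraries than in siNT.

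CA2 had 9 and 8 expected counts in siNT, 21 and 10 in siHOXA-AS3 and 6 and 4 in siHOXB-AS3, or 0.32 and 0.46, 0.88 and 0.57, and 0.22 and 0.18 TPM. The siHOXA-AS3 libraries were above and the siHOXB-AS3 libraries below both siNT libraries. The log2 fold changes were 0.87 (SE 0.496) in siHOXA-AS3 and -0.88 (SE 0.573) in siHOXB-AS3, with the largest errors of the set.

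**Figure D3:**
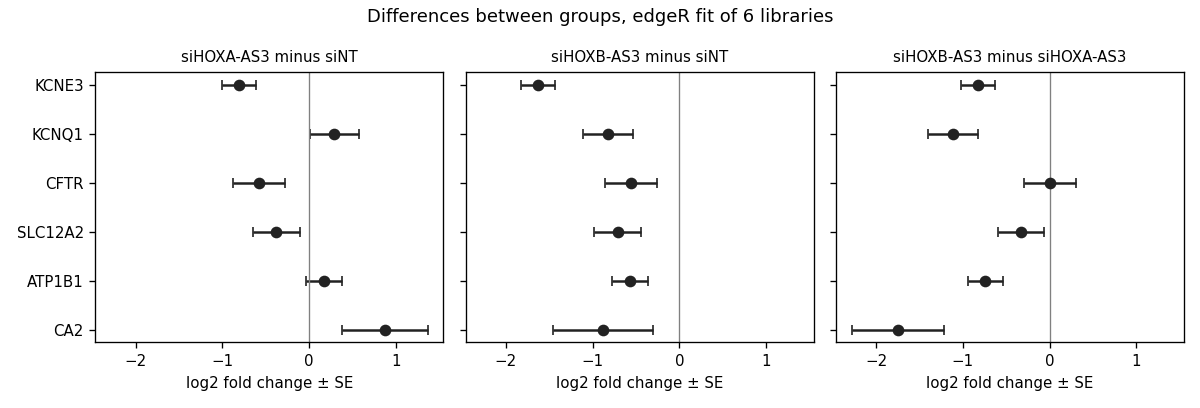
log2 fold change with its standard error (bars) of the 6 tested genes in the 3 comparisons, from 1 edgeR fit of the 6 libraries. All 6 points lie below 0 for siHOXB-AS3 minus siNT, from -1.63 (KCNE3) to -0.56 (CFTR), while those for siHOXA-AS3 minus siNT lie on both sides of 0.

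In siHOXB-AS3 minus siNT all 6 tested genes had non-overlapping lower libraries, CA2 at 6 and 4 counts against 9 and 8 among them. Of all 13034 genes 30.9% were lower without overlap in this comparison and 30.9% were higher. In siHOXA-AS3 minus siNT, KCNE3 and CFTR were lower without overlap (16.1% of all genes), CA2 was higher (12.5%) and 3 overlapped. In siHOXB-AS3 minus siHOXA-AS3, KCNE3, KCNQ1, ATP1B1 and CA2 were lower without overlap (22.5% of all genes; 22.8% were higher), and CA2 had passed the filter mainly through siHOXA-AS3. The median log2 fold change of the 6 genes was -0.1, -0.76 and -0.78 in siHOXA-AS3 minus siNT, siHOXB-AS3 minus siNT and siHOXB-AS3 minus siHOXA-AS3, against 0.01, -0.01 and -0.01 over all genes. Each pair of these comparisons shares the libraries of a group, so the medians are not separate observations. As these contrasts were in view when the genes were chosen, nothing is read from the counts.

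By the edgeR test none of the 6 passed in any comparison, where 0%, 0.0614% and 1.57% of all genes passed. The number that passed differed between settings. Because the genes were chosen with these contrasts in view, nothing is read from these numbers or from their distance to the shares of all genes. For siHOXB-AS3 minus siNT, DESeq2 called KCNE3 lower (1.74% of all genes lower), and an edgeR fit of the 4 libraries of those groups alone called the 5 genes it tested lower (12.1% of all genes lower and 11.2% higher). Without siHOXA-AS3 replicate 1, or without replicate 2, 5 of the 6 genes passed, CA2 being the exception (22.7% and 22.6% of all genes). KCNN4 is not counted there, because it was tested only through siNT, where it is higher, under the looser filter that a group of 1 library sets. For the same comparison 4 of 6 passed after removal of the GC trend (14.4%). For siHOXA-AS3 minus siNT, SLC12A2 passed after removal of the GC trend (4.47%), KCNE3 and ATP1B1 (the latter higher) without siHOXA-AS3 replicate 1 (30.3%), and KCNE3, CFTR and SLC12A2 without replicate 2 (17.9%). For siHOXB-AS3 minus siHOXA-AS3, 3 of 6 passed by DESeq2 (6.08%), 4 of 6 after removal of the GC trend (27%), and 4 of 6 without siHOXA-AS3 replicate 1 (37.8%) or replicate 2 (36%). In this last comparison CA2 was among the genes called after removal of the GC trend and among those called without replicate 2. CA2 entered the test mainly through siHOXA-AS3, where it was highest, so the filter favours a lower call and nothing is read from it. Without one of its libraries siHOXA-AS3 is a single library, assumed to vary like the other groups. Its calls against siNT then rest on the spread within siNT and siHOXB-AS3.

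The replicates of siHOXA-AS3 disagreed on several of these genes. Replicate 1 held 0.587 of the TPM of replicate 2 for SLC12A2, 0.644 for CFTR and 0.65 for ATP1B1, whose transcripts have 40.1%, 42.2% and 47.3% GC. It held 0.934 for KCNE3 and 1.42 for KCNQ1, at 56.4% and 61.2% GC. The low genes did not follow that order, with 1.54 for CA2 at 48.5% GC and 0.793 for KCNN4 at 59.6% GC. The part of GC content in the group differences was not tested. After removal of the GC trend the log2 fold changes of siHOXB-AS3 minus siNT were -1.59 for KCNE3, -0.75 for KCNQ1 and -0.63 for CFTR. They were -0.79 for SLC12A2, -0.57 for ATP1B1 and -0.85 for CA2.

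To set the 8 genes in their pathway, 88 other genes of ion and water transport and its regulation were listed, of which 84 had a row of their own and 59 were tested. By edgeR none of these passed in siHOXA-AS3 minus siNT (7 at an unadjusted p under 0.05, beside 6.16% of all genes; 0 by DESeq2), and none in siHOXB-AS3 minus siNT (17 at an unadjusted p under 0.05, beside 12.2% of all genes; 5 lower by DESeq2, beside 1.74% of all genes, which were ANO1, ATP2A3, CA12, PRKACA and SLC9A3R2). With only the libraries of those groups, 23 of 58 passed in siHOXB-AS3 minus siNT, 18 lower and 5 higher, beside 23.3% of all genes. The 18 include AQP1, SLC26A9 and SLC9A2, all below 1 TPM, which entered this fit mainly through siNT, where they were higher. Without siHOXA-AS3 replicate 1 or 2, 25 of 60 and 25 of 61 passed, beside 22.7% and 22.6% of all genes. In siHOXB-AS3 minus siHOXA-AS3 a single gene, CA12, passed (1.57% of all genes), and none did without any one of the siNT or siHOXB-AS3 libraries, with the groups compared alone, with the replicate block or by limma. The median log2 fold change of the 59 was 0.08, -0.16 and -0.25 in the 3 comparisons, and 22, 35 and 42 of them were below 0, beside 48.7%, 50.7% and 51.1% of all genes. The 35 and the 42 include AQP1, AQP7 and SLC26A9, which entered the test only through siNT or siHOXA-AS3 libraries, where they were higher.

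**Figure D4:**
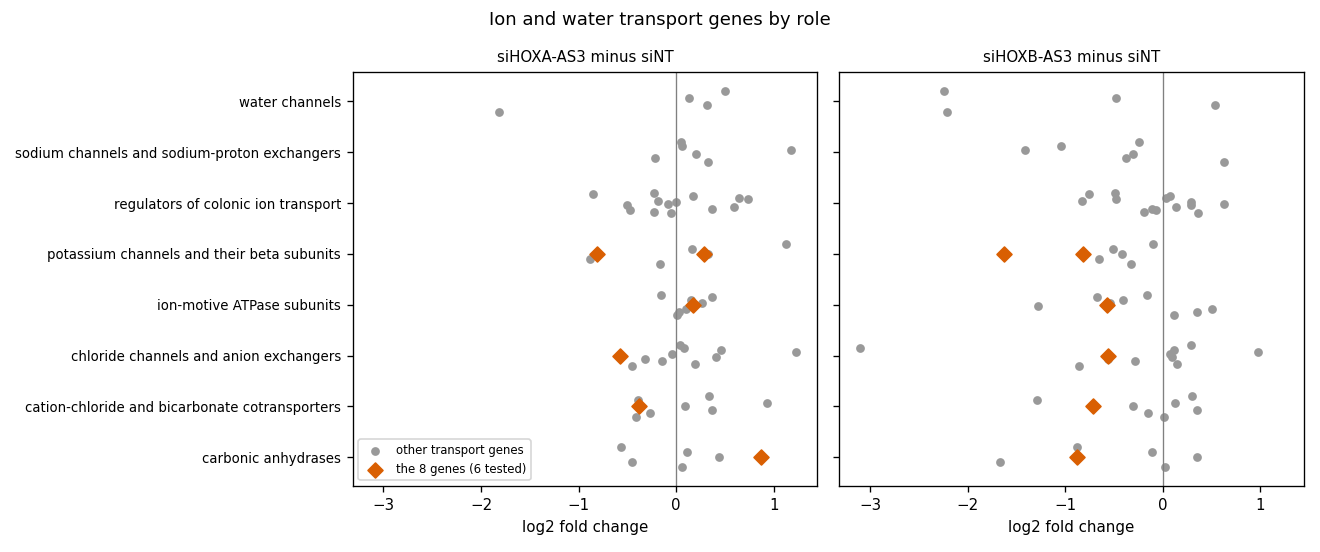
log2 fold change against siNT of the tested ion and water transport genes, by role (rows), for siHOXA-AS3 (left) and siHOXB-AS3 (right); grey points are the 59 other genes and orange diamonds the 6 tested genes of the set of 8. In the right panel 35 of the 59 grey points lie below 0 and all 6 diamonds do.

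CA12, a carbonic anhydrase on the cell surface, had 18.8 and 18 TPM in siNT, 14.1 and 12.9 TPM in siHOXA-AS3 and 6.21 and 4.76 TPM in siHOXB-AS3. It fell between the KDs with a log2 fold change of -1.22 (SE 0.21; edgeR adjusted p = 0.0476), and the value against siNT was -1.67 (SE 0.212; edgeR adjusted p = 0.0691). The groups stood in the order of KCNE3, without overlap. ATP2A3, a calcium pump of the endoplasmic reticulum, had a log2 fold change of -1.28 against siNT in siHOXB-AS3 (SE 0.316; edgeR adjusted p = 0.181), and SLC9A3R2, a scaffold of the apical sodium-proton exchanger, one of -1.04 (SE 0.295; edgeR adjusted p = 0.221). The values above 0 in that comparison included OXSR1, a kinase that activates SLC12A2, at 0.63 (SE 0.17; edgeR adjusted p = 0.201), the scaffold PDZK1 at 0.63 and the water channel AQP11 at 0.54.

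NEDD4L, a ubiquitin ligase that removes the epithelial sodium channel from the membrane, had 38.2 and 37.9 TPM in siNT, 25.5 and 28.5 TPM in siHOXA-AS3 and 43.2 and 44.3 TPM in siHOXB-AS3. Its values were lowest in siHOXA-AS3 and highest in siHOXB-AS3, with a log2 fold change between the KDs of 0.79 (SE 0.142; edgeR adjusted p = 0.0517). In siHOXA-AS3 minus siNT, among the other genes with at least 1 TPM whose libraries did not overlap, the lowest values were those of the potassium channel KCNK5 at -0.88 and VIPR1, the receptor of the secretagogue VIP, at -0.85, and the highest was that of SGK1, a kinase that inhibits NEDD4L, at 0.64 (edgeR adjusted p = 0.7, 0.642 and 0.678). GUCA2A at 0.59 (SE 0.5; edgeR adjusted p = 0.975) and SLC12A8 at 0.37 (SE 0.226; edgeR adjusted p = 0.925) were also above 0. GUCA2A rested on 11 and 14 counts in siHOXA-AS3 against 12 and 6 in siNT. Between the KDs PRKG2 was at -1.22 and OXSR1 at 0.71 (edgeR adjusted p = 0.21 and 0.0938).

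By role, the most abundant other genes in siNT were the pump regulator FXYD5 at 372 TPM, the kinase STK39 at 133 TPM, the sodium channel subunit SCNN1A at 88.0 TPM, the water channel AQP3 at 82.5 TPM, the chloride channel ANO1 at 47.0 TPM, the carbonic anhydrase CA9 at 27.2 TPM, the potassium-chloride cotransporter SLC12A7 at 17.3 TPM and the potassium channel KCNK1 at 8.89 TPM. Their fold changes in siHOXB-AS3 minus siNT were -0.16, 0.07, -0.38, -0.48, -0.86, -0.88, -0.15 and -0.33 in that order on the log2 scale, and none passed the edgeR test. ANO1, the calcium-activated chloride channel, was thus above CFTR in level in siNT, both per length. In siHOXB-AS3 minus siNT 50.7% of all genes were below 0. The potassium channel genes had 5 of 5 tested below 0 (median -0.42) and the sodium channels and exchangers 5 of 6 (-0.34). The ATPase subunits had 5 of 8 below 0 (-0.28), the carbonic anhydrases 3 of 5 (-0.11) and the water channels 3 of 4. Of these, AQP1 and AQP7, both below 1 TPM, entered the test only through siNT or siHOXA-AS3 libraries, where they were higher. No median is therefore given for the water channels. The chloride channels and anion exchangers had 4 of 10 below 0 (median 0.08), the cotransporters 3 of 7 (0.01) and the regulators 7 of 14 (-0.02). SLC26A9, below 1 TPM and one of the 4 chloride genes below 0, also entered the test only through siNT and siHOXA-AS3 libraries, where it was higher.

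Over the 6 libraries the genes most like KCNE3 in log2 CPM, among 6560 genes with a mean of at least 10 TPM, were MRGBP (Pearson r = 0.992), HOXB3 (0.989), RCAN3 (0.988), CASP2 (0.988) and TERF2 (0.987). These were picked as the highest of all and 96 genes (1.46%) were above 0.9, and the 6 points are 3 pairs of libraries. HOXB3 had 26.7 and 24.4 TPM in siNT, 18.9 and 19.6 TPM in siHOXA-AS3 and 15.8 and 13.3 TPM in siHOXB-AS3. Of the set itself SLC12A2 was most like KCNE3, at 0.734, followed by KCNQ1 at 0.691 and ATP1B1 at 0.683.

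Among the 8 epithelial markers 1 passed in siHOXB-AS3 minus siNT, beside 0.0614% of all genes. CEACAM5, an adhesion protein of colon epithelium, had 140 and 131 TPM in siNT, 134 and 120 TPM in siHOXA-AS3 and 41.1 and 39.4 TPM in siHOXB-AS3, and it fell in siHOXB-AS3 against siNT with a log2 fold change of -1.63 (SE 0.154; edgeR adjusted p = 0.0492). The call was lost without any one of the siNT or siHOXB-AS3 libraries and with the replicate block. EPCAM, an epithelial adhesion protein, was at -0.81 (SE 0.14; edgeR adjusted p = 0.101), CDH1 at -0.46, VIL1 at -0.16 and KRT20 at -0.11. KRT18 at 0.14 and KRT8 at 0.20 were above 0. CDX2 was at -0.78 (SE 0.55), on 12 and 5 counts against 20 and 8 in siNT, through which it mainly entered the test. None of these passed against siNT. In siHOXB-AS3 minus siHOXA-AS3, CEACAM5 at -1.58 and EPCAM at -0.82 passed (edgeR adjusted p = 0.01735 and 0.0471, beside 1.57% of all genes). Both calls were lost with the groups compared alone, and the other markers did not pass. The summed level of the 8 epithelial markers was 4860 to 5010 TPM in siNT, 4100 to 5560 TPM in siHOXA-AS3 and 4510 to 4840 TPM in siHOXB-AS3. The 11 markers of other cell types summed to 1.14 to 1.62, 1.44 to 2.2 and 1.02 to 1.1 TPM. The part of these differences in those of KCNE3, KCNQ1 and ATP1B1 was not tested.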

How the data were processed

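The authors deposited, for each of 6 libraries, RSEM results on RefSeq genes: expected counts (estimated fragments per gene, not normalized), TPM (scaled by length to the same sum in each library) and FPKM (scaled by length and library size). Submitters' processing notes name RSEM and hg19. The aligner is not given in the sources used here, nor are tool versions and strandedness. Among 27434 rows were 627 shared by more than one gene, with 6.02% to 6.62% of the counts, and 4 listed genes without a row of their own were not used.

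After rounding, the expected counts were tested with edgeR 4.0.16 (R 4.3.3): filterByExpr (minimum count 10), TMM, and a quasi-likelihood test on 1 fit to the 6 libraries, Benjamini-Hochberg over 13034 genes, threshold 0.05. The test was checked on simulated counts for siHOXB-AS3 minus siNT. Of 200 genes changed 4-fold among 13034, 94.5% were recovered, with 1 false call. Recovery in the 6 libraries themselves was not tested, and the 94.5% is not a detection rate for them. In that comparison HOXB-AS3, at a log2 fold change of -1.96, did not pass (edgeR adjusted p = 0.0678). The SD of the log2 difference between replicates was 0.78 in siHOXA-AS3, 0.50 in siNT and 0.46 in siHOXB-AS3. With 2 libraries against 2 an exact permutation test cannot go below a two-sided p of 0.333, so none is given. CPM means counts scaled to the TMM library size. Overlap of groups was judged on CPM.

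Alternatives were DESeq2 1.42.0, other size factors, no filter, the groups compared alone, a replicate block, limma 3.58.1 on log2(FPKM + 0.1), removal of a GC trend (loess) and leaving out each library. GC content and transcript sequences came from GENCODE v29 (GRCh38), and promoters from RefSeq. GC values covered 96.8% of the genes tested. No hg19 coordinate was used.

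The 8 genes and the list of 88 were chosen with earlier results of these data known. Named besides the 8 were, by rule, the most abundant gene of each role, called genes or the genes with the largest non-overlapping fold changes (mean of at least 1 TPM, 3 per direction and comparison), the KCNE and ATP1B genes, the 5 genes most like KCNE3, and the siRNA targets. The epithelial markers, and the other transport genes called by DESeq2, are named beside their counts. Some genes that this rule names are not reported here.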

Additional observations from a re-analysis of the deposited data

How the results depend on the processing

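The order of the comparisons here is siHOXA-AS3 minus siNT, siHOXB-AS3 minus siNT, then siHOXB-AS3 minus siHOXA-AS3. Over all genes 0, 8 and 204 were called. DESeq2 called 51, 347 and 792, no filter 24, 265 and 706, removal of the GC trend 564, 1812 and 3414, limma on log2 FPKM 1, 12 and 93, and the groups compared alone 0, 2995 and 2. Of the other transport genes 0, 0 and 1 were called, against 0, 5 and 7 by DESeq2, 0, 2 and 7 without a filter, 3, 16 and 21 without the GC trend, 0, 23 and 0 with the groups compared alone and 0 in each by limma. The 16 and the 23 include AQP1 and SLC26A9, and the 21 include SLC26A9, genes that entered through groups where they were higher. The replicate numbers are labels, and no source used here says whether equal numbers were paired. The correlation over genes of the replicate differences was -0.283, -0.147 and 0.127. These values cannot decide pairing, since the differences also went with GC content, with opposite signs in siNT and siHOXA-AS3. With the replicate block 0, 0 and 10 genes were called over all genes and 0 in each comparison among the other transport genes. With the siNT numbers crossed, an alternative chosen after seeing the data, 14, 225 and 758 genes and 0, 1 and 6 transport genes were called. Leaving out 1 library gave 0 to 4031, 0 to 3035 and 0 to 5027 genes and 0 to 27, 0 to 25 and 0 to 30 transport genes, with the highest numbers when a siHOXA-AS3 library was left out. The cause was not tested.

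Of the log2 fold changes of the 6 tested genes, 141 of 143 under settings with all libraries and 103 of 108 with 1 library left out kept their sign. The exceptions were CFTR between the KDs (0.01), at 0 without the filter, -0.03 by limma, -0.24 without siHOXA-AS3 replicate 1 and -0.34 without siHOXB-AS3 replicate 2 (range -0.34 to 0.3 with 1 library left out), SLC12A2 between the KDs, at 0.05 without siHOXA-AS3 replicate 2 (range -0.63 to 0.05), and, for siHOXA-AS3 minus siNT, KCNQ1 at -0.04 (range -0.04 to 0.56) and ATP1B1 at -0.11 (range -0.11 to 0.41). Depth limits KCNN4, CA2 and SLC26A3.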
